A study of Mus musculus with 2 samples.

Results

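Respiratory complex I, the NADH dehydrogenase of the inner mitochondrial membrane, was followed through the genes whose symbol in the deposited comparison table begins with Nduf. That rule found 32 genes among the 19086 with a single symbol, each read at the probe set with the highest mean signal. They comprise 30 subunits, 1 assembly factor and Ndufa4, which is now counted with cytochrome c oxidase. A further 12 genes carry a current Nduf name in RefSeq but stand in the table under an older one, 7 of 8 Ndufaf assembly factors among them, and they were added so that subunits and assembly factors could be compared. Of these 44 genes, 43 were detected, meaning that the higher of both signals reached 19.4, the median of all signals. Ndufb1, Ndufb6, Ndufv3 and the mitochondrially encoded subunits were not analysed here.

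The samples were 3T3-L1 cells, a clonal mouse line that turns from fibroblast-like preadipocytes into adipocytes under a hormone cocktail. Both carried a retroviral vector based on pMXs-puro, in which a weak LTR promoter drives the insert: 1 sample had the empty vector and 1 had the vector with Fbxl10, a histone demethylase gene now called Kdm2b. Both had been given 1 µg/ml of insulin, 0.25 µM dexamethasone and isobutylmethylxanthine (0.5 mM), in medium with 10% fetal bovine serum, and were taken at day 2 of differentiation. There was 1 Affymetrix array for each, so nothing below has a replicate check or a test, and precision is limited by the number of arrays.

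Below, the empty vector library is the control library, and the library given the label of Fbxl10 overexpression is the Fbxl10-labelled library. Fbxl10 itself was not higher in the latter: its brighter probe set read 558.5 in the control library and 419.6 in the Fbxl10-labelled library (log2 difference -0.41), and its second probe set read 431.6 and 350.9 (-0.30). Where they lie relative to the cloned sequence is not known from the sources used, so all directions are between the libraries as labelled. Median signals were 17.6 and 21.3, and the hybridization spike-ins averaged a log2 difference of 0.22, so a value near 0 depends on the scaling. The ratio of 3′ to 5′ control probe sets was 0.763 and 0.747 for Gapdh and 1.40 and 1.31 for beta-actin. The only spread that could be measured was that of log2 differences between probe sets of the same gene. Its SD was 0.302 over 4615 genes, and 0.231 where the mean signal was at least 500. It does not cover variation between arrays or cultures.

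Complex I takes electrons from NADH, passes them along a chain of iron-sulphur clusters to ubiquinone and pumps protons across the inner membrane. It is L-shaped: the peripheral arm stands in the matrix and holds an N module, where NADH is oxidised, and a Q module, where ubiquinone is reduced, while the membrane arm does the pumping. A set of core subunits does the chemistry, further supernumerary subunits surround the core, and assembly factors build the modules and are absent from the finished enzyme. White adipocytes are known to gain mitochondria as they differentiate.

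Complex I transcripts were lower in the Fbxl10-labelled library, by a modest amount across the subunits and by a large amount for 2 assembly factors. Of the 43 detected genes, 38 (88.4%) lay below 0 on the log2 scale, against 45.9% of all 11312 detected genes and 57.1% of the 1936 genes with a mean signal of at least 500. At 1.5-fold, 10 were lower and 0 higher, where 13.2% of all detected genes were lower and 19.5% higher. At 2-fold, 2 were lower, a share close to the 5.33% of all detected genes, and 0 were higher, against 9.82%. By the rule on symbols alone, 8 of 32 genes (25%) were at least 1.5-fold lower and none reached 2-fold. Among genes with a mean signal of at least 500, 14.2% reached 1.5-fold on the lower side and 9.5% on the higher side. At 2-fold those shares were 5.22% and 4.65%. The 2 complex I genes past 2-fold were Ndufaf4 and Ndufaf6, both listed under older names.

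**Figure D1:**
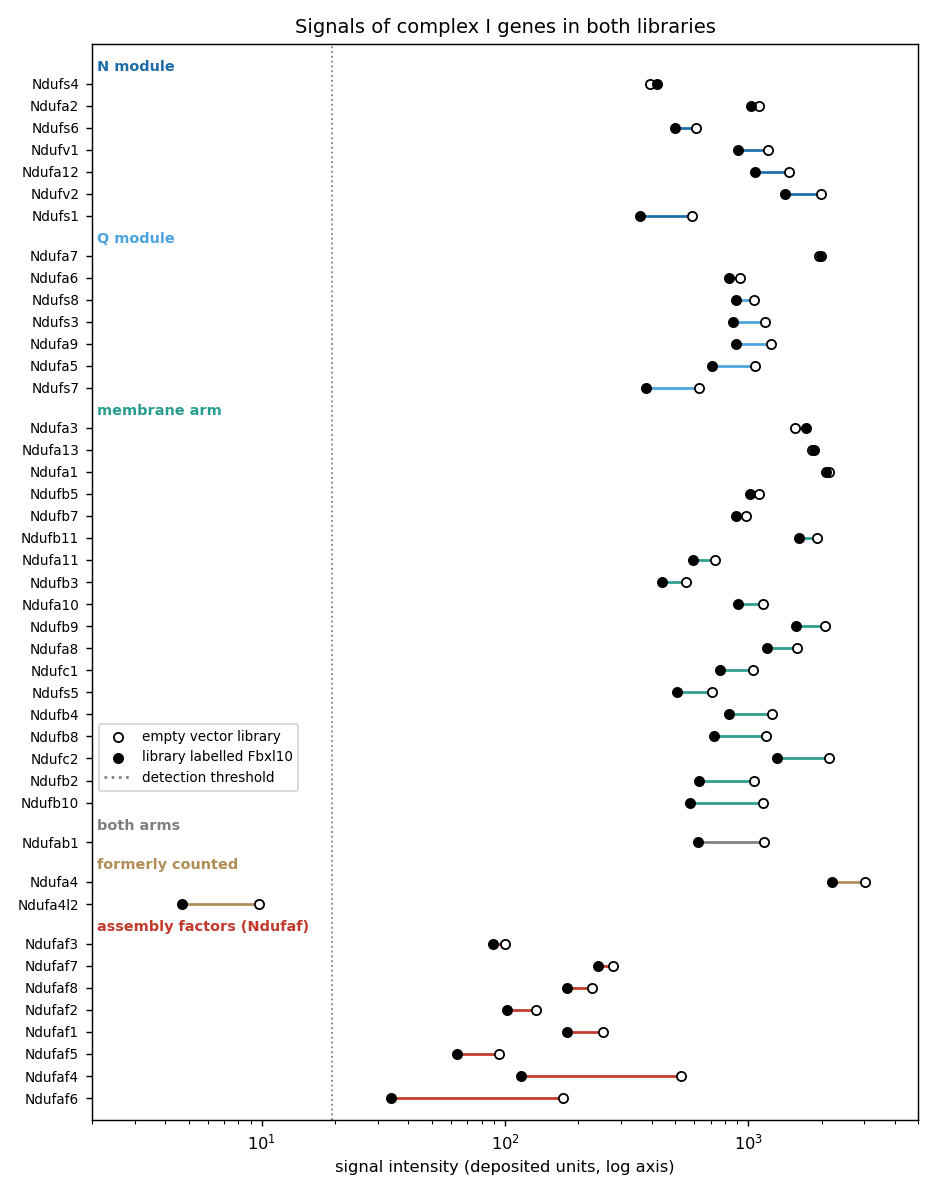
Signals of 43 complex I genes on a log axis, with an open circle for the control (empty vector) library and a filled circle for the Fbxl10-labelled library, grouped by role, and with Ndufa4 and Ndufa4l2 as formerly counted. The filled circle lies to the left for most genes, the widest gaps are those of Ndufaf4 (528.5 and 115.8) and Ndufaf6 (173.0 and 34.0), and Ndufa4l2 lies below the detection threshold of 19.4 in both libraries.

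Among the 34 subunits, the median log2 difference was -0.39, from -0.997 for Ndufb10 to 0.15 for Ndufa3. The median over all detected genes was 0.06, and over those with a mean signal of at least 500 it was -0.08. There were 20 subunits lower by more than the SD of 0.302 between probe sets and 0 higher by more than it. In all detected genes those shares were 25.6% and 32.3%, and in the genes with a mean signal of at least 500 they were 31.6% and 18.7%. The other respiratory complexes and the mitochondrial ribosome lay at similar values, so the lower signals were not shown to be particular to complex I. For complexes II to V, the median of 43 detected genes was -0.38, with 36 (83.7%) below 0, against 45.9% of all detected genes. At 1.5-fold 9 (20.9%) were lower, against 13.2% of all detected genes, and 1 was higher, Cox8c (log2 difference 0.85). Cox8c was dim, at 50.3 and 90.5, and by the authors' deposited log2 ratio it was at 0.1, short of 1.5-fold. For 77 mitochondrial ribosomal protein genes the median was -0.43, with 71 (92.2%) below 0 and 25 (32.5%) at least 1.5-fold lower.

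**Figure D2:**
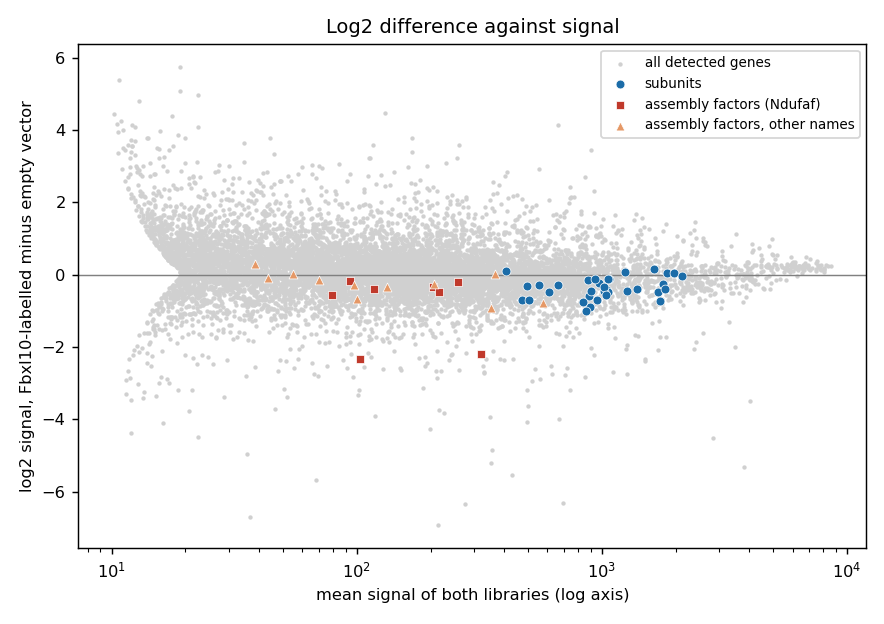
Log2 difference (Fbxl10-labelled minus empty vector) against the mean signal of both libraries on a log axis, with all 11312 detected genes in grey and complex I genes in colour. Subunits have mean signals between 406.3 and 2115 and Ndufaf assembly factors between 79.0 and 322.2, and Ndufaf4 and Ndufaf6 stand at -2.19 and -2.35.

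Of the 7 core subunits, which do the chemistry, 2 (28.6%) were at least 1.5-fold lower. That share was 13.2% of all detected genes and 14.2% of those with a mean signal of at least 500. Ndufv1, which binds the flavin and oxidises NADH, read 1204 in the control library and 903.6 in the Fbxl10-labelled library, 1.33-fold lower. Ndufv2, which pairs with it and carries an iron-sulphur cluster, read 1987 and 1415, 1.40-fold lower, and its 3 probe sets lay between -0.63 and -0.49. Ndufs1, the large subunit that carries the next clusters of the chain, read 585.2 and 359.8, 1.63-fold lower. All 3 core subunits of the N module were therefore lower, and Ndufs1 passed 1.5-fold.

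In the Q module the size of the difference varied among core subunits. Ndufs7, which holds the last cluster before ubiquinone, read 623.6 and 380.4, 1.64-fold lower. Ndufs3, in the stem of the peripheral arm, read 1175 and 864.6 (1.36-fold lower). Ndufs8, which relays electrons through its clusters, read 1050.1 and 888.5 (1.18-fold lower), with its 6 probe sets between -0.35 and 0.04. Ndufs3 and Ndufs7 were each read by 1 probe set.

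Supernumerary subunits, which stabilise the enzyme and do not carry electrons, had a median of -0.34 over 27 genes. Of these, 23 (85.2%) were below 0 and 6 (22.2%) at least 1.5-fold lower, against 45.9% and 13.2% of all detected genes. In the N module Ndufs4, a late-added subunit whose loss in mice gives an encephalopathy, read 392.3 and 420.3 (log2 difference 0.10), with 3 detected probe sets between -0.17 and 0.30. Ndufa12 read 1463 and 1062 (-0.46), though its 4 probe sets ran from -0.61 to 0.08, and Ndufs6 was at -0.30 and Ndufa2 at -0.12. In the Q module Ndufa5 read 1061 and 707 and sat at the line (1.501-fold lower), and both of its probe sets were low, at -0.75 and -0.59. Ndufa9, next to the quinone channel, was at -0.48 and Ndufa6 at -0.14. Ndufa7 was level, at 1948 and 1996, and its 5 probe sets lay between -0.11 and 0.19 around 0.

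The membrane arm held the lowest subunit. Ndufb10, in the outer part of the arm, read 1145 in the control library and 574 in the Fbxl10-labelled library, a log2 difference of -0.997 that is just short of 2-fold, at 1 probe set. Ndufb2 read 1052 and 625.3 (1.68-fold lower), Ndufc2 read 2154 and 1307 (1.65-fold lower) and Ndufb8 read 1181 and 724.7 (1.63-fold lower). These 4 were the membrane arm subunits past 1.5-fold (22.2%, against 13.2% of all detected genes). Ndufb4, at 1246 and 834.8 (1.49-fold lower), fell just outside. Of Ndufb2, the dimmest of 4 detected probe sets went the other way (15.6 and 23.2, log2 difference 0.57), while its remaining 3 lay between -0.86 and -0.26. Both probe sets of Ndufc2 (-0.72 and -0.65) and of Ndufb8 (-0.83 and -0.70) were close together.

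At the other end of the same arm Ndufa3, a subunit near the joint of both arms, read 1555 and 1723, the highest log2 difference of any member (0.15), and 0.004 at its second detected probe set. Ndufa13, also known as GRIM-19, read 1821 and 1865 (0.03), and Ndufa1 read 2150 and 2080 (-0.05). Between these ends stood Ndufs5 (-0.47), Ndufc1 (-0.44), Ndufa8 (-0.40), Ndufb9 (-0.38), Ndufa10 (-0.34), Ndufb3 (-0.33), Ndufa11 (-0.30), Ndufb11 (-0.25), Ndufb7 (-0.13) and Ndufb5 (-0.11). Further probe sets lay at -0.09 and -0.07 for Ndufb11 and at -0.33 for Ndufb5. By the authors' deposited ratio Ndufb11 was at 0.0 and Ndufb5 at -0.3, so their places in this order are uncertain. Ndufs4, Ndufa3, Ndufa7 and Ndufa13, which lay above 0, were all below 0 with centring on the spike-ins, so their direction depended on the scaling.

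The arms were read side by side. The median was -0.41 over 15 peripheral arm subunits and -0.36 over 18 membrane arm subunits, 0.05 apart, and within the peripheral arm it was -0.41 for the N module and -0.34 for the Q module. By the authors' deposited ratio the order of the arms was the opposite, at -0.3 for the peripheral and -0.4 for the membrane arm. Ndufab1, the mitochondrial acyl carrier protein, sits in both arms and also serves mitochondrial fatty acid synthesis. It read 1164 and 622.7, 1.87-fold lower, and its 4 probe sets were all below 0, from -0.90 to -0.45. Ndufa4, now assigned to cytochrome c oxidase, read 3021 and 2205 (1.37-fold lower), and its relative Ndufa4l2, known for its induction by hypoxia, was not detected (9.7 and 4.7).

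**Figure D3:**
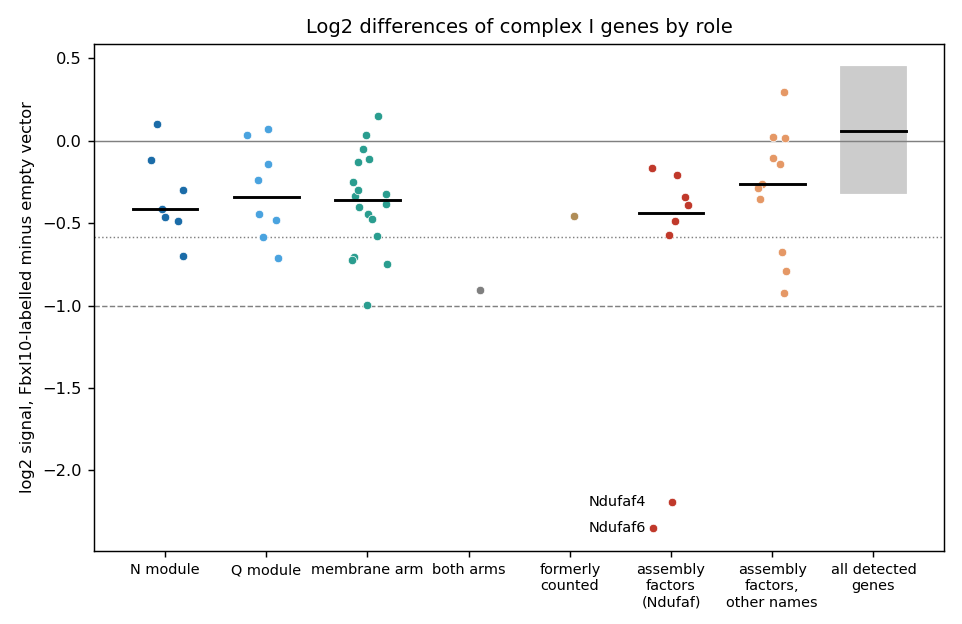
Log2 difference of each detected complex I gene by role, with a bar at the median of each group over 2 genes, a dotted line at 1.5-fold and a dashed line at 2-fold lower, and a grey box for the range between the quartiles of all detected genes, from -0.31 to 0.45 around a median of 0.06. The subunit groups overlap each other with medians between -0.41 and -0.34, and the 2 genes past the dashed line are Ndufaf4 and Ndufaf6.

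Assembly factors as a group sat beside the subunits, with 2 genes far below. All 8 Ndufaf genes were below 0 by the signals, against 45.9% of all detected genes, though Ndufaf3 was at 0.0 by the authors' deposited ratio. Their median by the signals was -0.44, which is 0.05 below that of the subunits. The medians were equal by the authors' deposited ratio, which has 1 decimal, at -0.4 each. With quantile normalization they were -0.50 for the Ndufaf genes and -0.27 for the subunits, and with the brightness trend removed -0.46 and -0.31. With the assembly factors of other names added, the factor median was -0.34, above that of the subunits. The order depended on the setting and the list, so neither group was shown to be lower. The roles of these factors are known mainly from human cells.

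Ndufaf4, which works with Ndufaf3 on the Q module early in assembly, is listed as 1110007M04Rik and read 528.5 in the control library and 115.8 in the Fbxl10-labelled library, 4.56-fold lower. Ndufaf3 read 99.7 and 88.8, 1.12-fold lower, so the pair did not share the size of the difference. Ndufaf6, needed early for the mitochondrially encoded part of the membrane arm next to the Q module, is listed as 2310030N02Rik and read 173.0 and 34.0, 5.09-fold lower. Each of Ndufaf4 and Ndufaf6 rests on 1 probe set. In the authors' deposited table their log2 ratios were smaller, -1.9 and -1.5, with the same direction.

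The remaining factors lay within 1.5-fold. Ndufaf5, a hydroxylase of Ndufs7, read 94.4 and 63.6 (1.48-fold lower), and Ndufaf8, which stabilises it, read 228.5 and 180.1 (1.27-fold lower). Ndufaf1, part of the complex that builds the membrane arm, read 252.1 and 179.7 (1.40-fold lower). Ndufaf2, a paralogue of the subunit Ndufa12 that holds its place until late in assembly, read 134.0 and 102.2 (1.31-fold lower). Ndufaf7, a methyltransferase, read 278.5 and 240.7 (1.16-fold lower). Mean signals of the 8 Ndufaf genes lay between 79.0 and 322.2, and at such levels probe sets of the same gene differed by SDs of 0.349 under a mean signal of 100 and 0.299 between 100 and 500.

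Most assembly factors with other names were lower, and 3 lay above 0. Of 11 with a probe set, 8 (72.7%) were below 0, against 45.9% of all detected genes, and their median was -0.26. At 1.5-fold 3 (27.3%) were lower and 0 higher, against 13.2% and 19.5% of all detected genes. Tmem70, which acts on complex I and on ATP synthase, read 461.4 and 243.1 (1.90-fold lower). Aifm1, which helps import subunits through the intermembrane space, read 728.4 and 420.4 (1.73-fold lower). Ecsit, a partner of Ndufaf1, read 123.0 and 77.0 (1.597-fold lower). Acad9, another partner, read 225.7 and 187.9 (1.20-fold lower), with further probe sets at -0.42 and -0.44. By the authors' deposited ratio Ecsit and Acad9 were both at -0.5, short of 1.5-fold. Above 0 were Tmem126b, of the same assembly complex (34.4 and 42.2, log2 difference 0.29), Dmac1 (0.02) and Nubpl, which delivers iron-sulphur clusters (0.02). By the authors' deposited ratio Tmem126b was at 0.2, while Dmac1 (-0.3) and Nubpl (-0.1) were below 0. Dmac2 changed the other way, from -0.10 by the signals to 0.1 by that ratio. The direction of Dmac1, Nubpl and Dmac2 therefore depended on the measure. That of Tmem186 depended on the probe set: the brightest was at -0.35 and the others at 0.13, -0.51 and 0.35. Taking both kinds together, 19 assembly factors had a median of -0.34, again close to that of the subunits, with 5 (26.3%) at least 1.5-fold lower.

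Further probe sets mostly pointed the same way. For the 19 complex I genes with more than 1 detected probe set, all probe sets had the same sign in 14, and 30 of 35 further probe sets had the sign of the brightest. The median spread between the highest and lowest probe set of a gene was 0.16, and the widest was 1.43, for Ndufb2. The brightest probe set of 8 members has a name ending in _s_at or _x_at, which marks probes that may read more than 1 gene, and RefSeq names 7 near copies of members, such as Ndufab1-ps, Ndufb4b and Ndufa12-ps. The 8 members are Ndufab1, Ndufa12, Ndufs5, Ndufc2, Ndufa3, Ndufa13, Ndufa2 and Ndufaf7, and their values are uncertain to that extent, as are those of Ndufa11, Ndufb4 and Ndufs6, which have near copies. With probe sets of the plain _at kind alone, 5 of 33 genes (15.2%) were at least 1.5-fold lower. That share is close to the 12.8% of all detected genes under that setting. The setting also leaves out names ending in _a_at, so it does not isolate probes that may read more than 1 gene. Ndufb10 was lost under it. Ndufab1 (-0.45) was then read at a dim probe set (58.8 and 43.0), as was Ndufb2 (45.0 and 37.6, log2 difference -0.26).

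Adipocyte markers moved with these values. Of 7 adipocyte genes, 6 had a probe set and all 6 were at least 2-fold lower, against 5.33% of all detected genes. Their summed signal was 16013 in the control library and 1774 in the Fbxl10-labelled library. The fat cell gene Adipoq read 841.4 and 18.0 and so was below the threshold in the latter. For 7 preadipocyte and fibroblast genes the sum was 23841 and 34644, with 2 at least 2-fold higher, against 9.82% of all detected genes. The part of the adipocyte state in the complex I values was not tested, and fewer adipocytes cannot be told apart from less complex I RNA per cell. Markers of blood cells and macrophages summed to 56.9 and 81.5, those of endothelium to 26.3 and 37.5, and those of epithelium to 32 and 34.6, with 2 of these 13 genes detected, Cd68 and Csf1r.

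Genes that control respiratory transcripts were read beside the members. Ppargc1b, a coactivator of mitochondrial genes, read 402.6 and 29.9 (13.5-fold lower), and the related Ppargc1a read 49.9 and 16.5, below the threshold in the Fbxl10-labelled library. The DNA-binding factors were level in comparison: Nrf1, which binds many respiratory promoters, read 67.0 and 64.2, Gabpa read 340.7 and 368.9, and Yy1 read 924.2 and 878.4. For the upkeep and reading of mitochondrial DNA, Tfam read 265.8 and 205.0, Tfb2m read 360.7 and 308.3 and Tfb1m, a methyltransferase of mitochondrial ribosomal RNA, read 175.4 and 96.5 (1.82-fold lower). In all, 8 of 9 such regulators were below 0, 3 were at least 1.5-fold lower and 0 higher, against 45.9% and 13.2% of all detected genes below 0 and at least 1.5-fold lower. In the authors' deposited table Tfb1m was at -0.4, short of 1.5-fold.

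Promoter sequence was available for 38 of the 44 genes and not for the rest, Ndufaf6 and Ndufs1 among them. The windows ran from 250 bases before to 50 after the RefSeq start, in build GRCm38.p6. They were searched on both strands for the letters of the nuclear respiratory factor site of Nrf1 (GCGCATGCGC), its shorter core (TGCGCA), an ETS site (CCGGAAG), an oestrogen-related receptor site (AAGGTCA), a Yy1 site (AAGATGG) and an E-box (CACGTG). The full Nrf1 letters were in the windows of 3 of 38 genes (7.89%) against 1.07% of all 27025 genes of the promoter table, non-coding ones included, and they can overlap the core. Those 3 genes are Ndufaf4, Ndufaf5 and Ndufa11, with log2 differences of -2.19, -0.57 and -0.30. The core was in 10 of 38 (26.3% against 8.79%), the Yy1 letters in 8 (21.1% against 7.28%), the ETS letters in 5 (13.2% against 9.93%), the receptor letters in 3 (7.89% against 5.38%) and the E-box in 2 (5.26% against 8.09%). A match describes letters in these windows and is not shown to be a binding site.

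The windows of the 3 genes with the full Nrf1 letters are shown with those of the lowest subunit, Ndufb10, and the highest, Ndufa3, 5′ to 3′ on the strand of the gene, credited to RefSeq. Capitals mark the letters of the motifs found. The windows are chr4:24897833-24898132 on the plus strand for Ndufaf4, chr2:140170396-140170695 on the plus strand for Ndufaf5, chr17:56717512-56717811 on the plus strand for Ndufa11, chr17:24724374-24724673 on the minus strand for Ndufb10 and chr7:3617123-3617422 on the plus strand for Ndufa3.
Ndufaf4: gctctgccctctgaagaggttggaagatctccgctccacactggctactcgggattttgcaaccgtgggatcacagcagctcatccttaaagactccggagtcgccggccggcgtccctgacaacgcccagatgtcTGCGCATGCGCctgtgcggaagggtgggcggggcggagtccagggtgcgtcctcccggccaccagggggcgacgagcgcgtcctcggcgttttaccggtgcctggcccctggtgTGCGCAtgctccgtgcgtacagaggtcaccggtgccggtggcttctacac
Ndufaf5: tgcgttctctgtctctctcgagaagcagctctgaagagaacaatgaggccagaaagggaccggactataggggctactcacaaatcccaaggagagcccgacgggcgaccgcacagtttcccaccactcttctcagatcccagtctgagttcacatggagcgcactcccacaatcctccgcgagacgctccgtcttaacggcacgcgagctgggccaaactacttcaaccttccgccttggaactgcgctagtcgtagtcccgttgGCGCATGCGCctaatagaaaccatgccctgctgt
Ndufa11: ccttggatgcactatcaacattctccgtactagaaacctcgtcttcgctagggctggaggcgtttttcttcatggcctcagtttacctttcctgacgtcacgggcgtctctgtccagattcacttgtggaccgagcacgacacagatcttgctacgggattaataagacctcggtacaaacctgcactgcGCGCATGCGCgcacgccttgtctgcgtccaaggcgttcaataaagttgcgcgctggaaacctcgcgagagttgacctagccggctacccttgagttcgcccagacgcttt
Ndufb10: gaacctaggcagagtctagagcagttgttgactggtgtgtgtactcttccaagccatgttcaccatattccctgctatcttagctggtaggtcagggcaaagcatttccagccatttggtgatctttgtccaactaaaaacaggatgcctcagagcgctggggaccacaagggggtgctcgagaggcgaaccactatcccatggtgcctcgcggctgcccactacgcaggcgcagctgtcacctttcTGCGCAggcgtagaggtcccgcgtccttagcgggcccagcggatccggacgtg
Ndufa3: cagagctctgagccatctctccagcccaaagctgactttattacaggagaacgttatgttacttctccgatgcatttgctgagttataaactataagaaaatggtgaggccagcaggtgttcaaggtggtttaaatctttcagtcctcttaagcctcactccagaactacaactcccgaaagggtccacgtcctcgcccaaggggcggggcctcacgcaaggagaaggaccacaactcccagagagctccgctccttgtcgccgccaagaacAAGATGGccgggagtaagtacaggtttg
With positions counted from 0 at the start site, the Nrf1 letters of Ndufaf4 begin at -113 and overlap the shorter core, and a second core begins at 0. The Nrf1 letters begin at 16 in Ndufaf5 and at -60 in Ndufa11. Ndufb10 has the core alone, which begins at -3, and in Ndufa3 the Yy1 letters begin at 22.

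The scaling moved the size of the complex I medians and not their direction. The subunit median ran from -0.61 with centring on the spike-ins to -0.27 with quantile normalization, and the median of the Ndufaf assembly factors from -0.66 with the same centring to -0.4 by the authors' deposited ratio. Set against the median of all detected genes under the same setting, the subunit median differed by -0.45 as deposited, by -0.31 with the brightness trend removed and by -0.25 with quantile normalization.

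**Figure D4:**
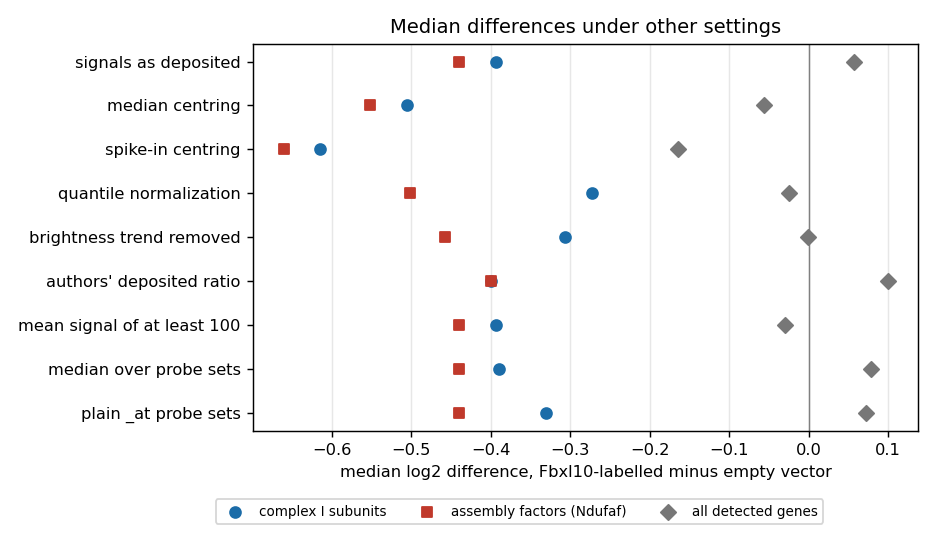
Median log2 difference (Fbxl10-labelled minus empty vector) of 34 complex I subunits, 8 Ndufaf assembly factors and all detected genes under the signals as deposited and 8 other settings. Subunit and assembly factor medians lie to the left of the median of all detected genes in each setting shown, and the gap between subunits and assembly factors is widest with quantile normalization (-0.27 and -0.50).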

How the data were processed

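Total RNA of 2 samples of 3T3-L1 cells was hybridised to 1 Affymetrix mouse array each, per the labels. The deposited table gives a signal intensity per probe set on a linear scale, scaled by the authors so that the mean after trimming the lowest and highest 2% was 100.0 on both arrays (found from the values). It also holds the authors' deposited log2 ratio to 1 decimal. Summarisation software is not named in any label or header, and the authors' present or absent calls were not used. A second deposited table held the same intensities, with 0 of 45101 probe sets differing.

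Symbols of 33957 single-symbol probe sets were updated through RefSeq names (GRCm38.p6): 19745 matched a symbol, 11805 a synonym and 2407 neither. The brightest probe set stood for a gene, and log2 differences are the Fbxl10-labelled library minus the control library, which had the empty vector. A gene was detected where its higher signal reached 19.4, which is no test. With 1 array a group there was no test, and folds of 1.5 and 2 served as calls. The members and lists were chosen with earlier results of these data known. One member gene counts in the group totals and is not reported here by itself. Named were the other Nduf genes, with both signals for the core subunits, the assembly factors and the 4 highest and 4 lowest members, and a few more where a result turns on them. Alternatives covered scaling, source, detection, probe set choice and membership. Steps were tested on simulated data. Python 3.11.15, pandas 2.3.3 and statsmodels 0.14.6 were used.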

Additional observations from a re-analysis of the deposited data

How the results depend on the processing

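No paired analysis was possible because each group has 1 sample. A median or a count was taken to have moved where it changed by over 1.5 times. With spike-in centring, which lowers each value by 0.22, the medians of subunits (-0.6146), Ndufaf genes (-0.6606), peripheral arm (-0.6348) and membrane arm (-0.5816) did so, and no such median changed sign under any alternative. The number of complex I genes at least 1.5-fold lower was 10 as deposited (23.3%, against 13.2% of all detected genes), 16 with median centring (37.2% against 17.0%), 24 with spike-in centring (55.8% against 22.2%) and 5 with plain _at probe sets (15.2% of 33 against 12.8%). At least 2-fold lower were 2 as deposited, 4 with median centring (9.3% against 6.52%) or spike-in centring (against 8.45%), with Ndufb10 and Ndufab1 added, and 0 at a mean signal of at least 500, an alternative added after the data were seen that leaves out every Ndufaf gene. None were 1.5-fold higher under any alternative. With spike-in centring 13.2% of all detected genes were at least 1.5-fold higher, against 19.5% as deposited. That share was 9.5% among genes with a mean signal of at least 500. The subunit median minus that of all detected genes was -0.45 as deposited and -0.2479 with quantile normalization. The subunit median minus that of the Ndufaf genes was 0.046 as deposited, 0.2283 with quantile normalization, 0.1518 with the brightness trend removed, 0.1084 with plain _at probe sets and 0.0 by the authors' deposited ratio. It turned to -0.0502 with the assembly factors of other names, added after the data were seen. Beyond the fewer genes left under plain _at probe sets and the higher minimum, the causes were not tested. Ndufaf4 ran from -2.41 to -1.9 and Ndufaf6 from -2.57 to -1.5.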

Other observations

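Genes that start back to back with complex I genes were read after the data were seen, using RefSeq start sites on opposite strands up to 1000 bases apart or overlapping by under 200 bases. There were 15 such neighbours, of which 14 had a probe set and 11 were detected, 6 of them lower in the Fbxl10-labelled library, where 45.9% of all detected genes were lower. The widest difference was that of Tssk6 beside Ndufa13 (0.03), at 3.8 and 19.5 (log2 difference 2.36), with the higher signal at the detection threshold. Esf1, a ribosome biogenesis factor beside Ndufaf5 (log2 difference -0.57), read 527.7 and 299.0, 1.76-fold lower. Mrpl47, a mitochondrial ribosomal protein gene beside Ndufb5 (-0.11), read 226.6 and 131.4, 1.72-fold lower. Ercc8, of transcription-coupled DNA repair, read 61.2 and 47.8 (-0.36) beside Ndufaf2 (-0.39). Phf14 read 324.7 and 475.7 (0.55) beside Ndufa4 (-0.45), and Rps28, of the cytosolic ribosome, read 7429 and 8949 (0.27) beside Ndufa7 (0.04), so shared start regions went with both like and unlike differences.

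Among the other respiratory complexes, complex III had a median of -0.55, with 9 of 9 detected genes below 0. Of these, 4 (44.4%) were past 1.5-fold lower, against 13.2% of all detected genes. Complex II had 4 of 4 below 0, with a median of -0.55. Complex V had 14 of 17 below 0 (median -0.38) and complex IV 9 of 13 (median -0.25). Below 0 were 45.9% of all detected genes and 57.1% of those with a mean signal of at least 500. In complex IV, Cox8c, Cox7c, Cox7b and Cox6a2 were dim, with mean signals of 70.4, 42.05, 26.25 and 19.15. Its remaining genes had mean signals of 1330.55 or more. No test separated them from complex I.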
